A study of Mus musculus with 4 samples.

Results

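The array of ES cells treated with an FGFR inhibitor was set directly against the array of cells treated with a MEK inhibitor, without the control array. Both arrays come from 4 arrays of B6R(5) mouse ES cells, a male C57BL/6 line grown without feeder cells on gelatin, 1 array for each condition, all on 1 slide. Treatment began 24 hr after the cells were seeded and lasted 48 hr. The FGFR inhibitor was PD173074 at 100 μM, the MEK inhibitor PD98059 at 25 μM, the GSK inhibitor BIO at 2 μM, and all cultures, the control included, held 0.2% DMSO. These doses follow the methods of the study, and a supplement to it prints the same numbers in mM. The doses of both inhibitors differ, and the arrays hold no measure of how far either kinase was blocked. RNA of the ES cells was labeled with Cy3 and hybridised together with a reference RNA in Cy5, and dyes were not exchanged. The labels name the reference as a universal mouse pool, while the methods, in a protocol for organ samples to which they refer for these cells, mix such a pool with RNA of MC1 cells.

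Of the 25030 genes with a deposited value, 1 probe each, 16851 had a Cy3 signal well above background on both arrays, and these are the genes compared. The compared value is the log2 ratio of Cy3 to Cy5 with FGFR inhibitor minus that with MEK inhibitor, called the log2 difference here. A positive value means a higher level with FGFR inhibitor. With 1 array per condition no spread between replicates exists, so no test was made and no p-value is given. Symbols come from supplementary tables held in part. They name 4377 of the 16851 genes, or 26.0%, and 17.4% of those matched to RefSeq lie on chromosome 1, so the named genes are not an even sample of the genome.

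FGF4, made by ES cells themselves, binds FGF receptors on the cell surface and activates RAS, RAF, MEK and ERK in turn. The receptors also activate PI3K, phospholipase C and STAT proteins, none of which needs MEK. In mouse ES cells the ERK branch is known to prepare cells for differentiation, and its block is used to hold them in the ground state. A gene whose level follows ERK alone should be alike under full block of either kinase, and the comparison asks which levels were not.

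Each gene rests on 1 probe of 60 bases, and the start of the probe is shown for the genes on which the results turn. The scanner files map none of the probes, so no coordinates are given. The first 30 bases, 5′ to 3′ as in the scanner files, are:
Cfc1 (chromosome 1 in RefSeq, Z00063770-1): aacagattcactggaatatgctggattctc
Agpat9 (chromosome 5, Z00045306-1): ttcttgtgttggctcaaggaattgtaaggc
Cxcr7 (chromosome 1, Z00019338-1): acttcgggctgcaaacccgtgaacaaggga
Rxrg (chromosome 1, Z00053850-1): aggtctttccggcagttcttgggaagagtg
Gbx2 (chromosome 1, Z00005313-1): caaatctctctccttacactttccagatga
Abcb4 (chromosome 5, Z00076617-1): agctgctggcgcagaagggcatctatttct
Abcb1b (chromosome 5, Z00035873-1): ctactttcttaaatgattataaagattgta
Abcb1a (chromosome 5, Z00022795-1): atatattgtcccaactgggatattgtacat

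Inhbb was read by 2 probes that share 45 bases. They are shown in the stretch where the shared part begins, with shared bases in capitals, because the pair gives a second reading of the same transcript on each array:
Inhbb (chromosome 1, Z00002490-1, bases 6 to 35): gcgaatgattGCTTTCAATGTTTGCACTGA
Inhbb, second probe (Z00074574-1, bases 1 to 30): GCTTTCAATGTTTGCACTGATCTAGTTGCA

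Most genes stood at nearly the same level under both inhibitors. The median log2 difference over the 16851 genes was -0.0040, with a robust SD, computed from the median absolute deviation, of 0.17. At a difference of at least 2-fold, 102 genes were called, which is 0.605% of those compared. Of these, 67 (0.398%) were higher and 35 (0.208%) were lower with FGFR inhibitor. The excess of higher calls depended on the processing. It was 65.7% of the calls here, 51.3% in the ratio of the scanner's processed signals, with 237 higher and 225 lower, and 42.4% after median centring, with 42 higher and 57 lower. At 1.5-fold, 482 genes (2.86%) were called, of which 244 were higher and 238 lower. In the processed signals 462 of the 16851 genes were past 2-fold, which is the background for counts in that form below.

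**Figure D1:**
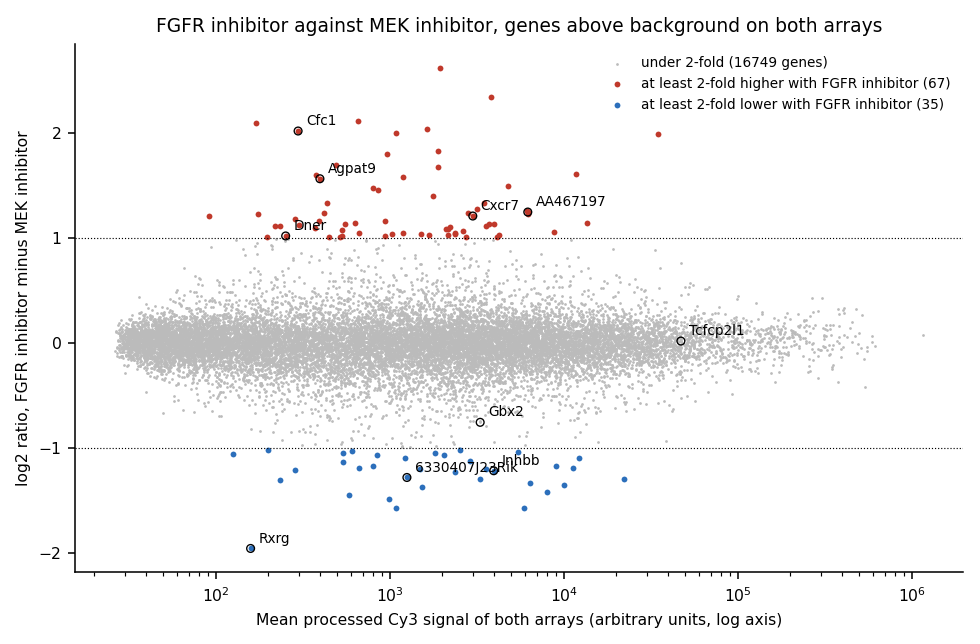
The log2 ratio with FGFR inhibitor minus that with MEK inhibitor (y axis) is plotted against the mean processed Cy3 signal of both arrays (x axis, log scale, arbitrary units) for 16851 genes, 1 point each. Dotted lines mark 2-fold, and the 67 genes above and 35 below them lie over most of the range of signal, while Tcfcp2l1 sits near 0.

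Several measurements bear on the error of these values. Cy5 carried one reference RNA throughout, and its log2 difference had a robust SD of 0.047, with 4 genes at least 2-fold higher and 2 lower. Probes that share at least 20 bases formed 1047 measured pairs, and the log2 differences of a pair lay 0.049 apart in the median, with no pair 1 or more apart. In 20 groups of genes by Cy3 signal, the robust SD ran from 0.098 in the dimmest group to 0.20. Every called gene was at least 4.9 times that of its own group from 0. The 2-fold threshold and the size of these SDs ensure that multiple in advance, so it says nothing about the error. These values describe spots and arrays, and the spread between cultures was not measured.

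The called genes were mostly set apart by the array with FGFR inhibitor. Among the 67 higher genes, that array had the highest ratio of all 4 arrays for 66. Among the 35 lower genes it had the lowest ratio for 29, and the GSK inhibitor array was lowest for the other 6. These genes were chosen for the distance between the FGFR and MEK inhibitor arrays. The MEK inhibitor array could thus not be the extreme on the same side, and the choice favours these counts. The control array, which did not enter the comparison, lay nearer to the MEK than to the FGFR inhibitor array for 65 of the 67 and for all 35. It stood within 1.5-fold of the MEK inhibitor array for 59 and 33 of them. How often each of these positions held over all compared genes was not counted. In the median, the control was 0.21 below the MEK inhibitor array on the log2 scale for the higher genes, and 0.0030 above it for the lower genes.

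Of the 102 genes, 16 carry a symbol, 11 higher and 5 lower, which is 0.366% of the 4377 named genes. The largest difference among them was that of Cfc1, which encodes the EGF-CFC coreceptor Cryptic through which Nodal signals. Its log2 ratio to the reference was 2.69 with FGFR inhibitor and 0.67 with MEK inhibitor, against 0.65 on the control array and 0.53 with GSK inhibitor. The FGFR inhibitor array thus stood alone, and the other 3 arrays lay close together. The log2 difference was 2.02, where genes of similar signal had a robust SD of 0.19. The processed Cy3 signal was 942 with FGFR inhibitor and 94.1 with MEK inhibitor. In Cy3 alone, normalized without the reference, the log2 difference was 1.94. Cy5 cleared background with FGFR inhibitor alone and not on the other 3 arrays. Its processed signal was 26.3 with FGFR inhibitor and 4.10 with MEK inhibitor, and the ratio of processed signals gave 0.64.

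Inhbb, the beta B subunit of activin and inhibin B, stood on the opposite side. Its log2 ratio was 1.82 with FGFR inhibitor and 3.03 with MEK inhibitor, against 2.68 in the control and 1.00 with GSK inhibitor. The control lay between both inhibitors, nearer to the MEK inhibitor array, and the GSK inhibitor array was the lowest. The log2 difference was -1.22 on the first probe and -1.32 on the second. In Cy3 alone the first probe gave -1.40 and the second -1.36. Cfc1 and Inhbb were the only called members of 13 measured genes of Nodal, activin and BMP signalling, and the median log2 difference of that list was 0.014.

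Rxrg, the gamma form of the retinoid X receptor, which pairs with other nuclear receptors on DNA, had the lowest value of the comparison. Its log2 ratio was 0.12 with FGFR inhibitor against 2.08 with MEK inhibitor, and it was 3.34 in the control and 1.21 with GSK inhibitor. All 3 inhibitor arrays were below the control, and the FGFR inhibitor array was the farthest from it. The log2 difference between FGFR and MEK inhibitor was -1.96. The processed Cy3 signal was 49.3 with FGFR inhibitor and 512 with MEK inhibitor, and Cy3 alone gave a difference of -1.44. With MEK inhibitor the reference channel did not clear background here, and the processed signals gave -4.13. The other 3 measured genes on the list of retinoid and nuclear receptor genes were under 2-fold, and the highest of them, Nr5a2, an activator of pluripotency genes looked up after its value was seen, was at 0.41 by the ratio and 1.07 in the processed signals, with Cy5 not well above background on either array.

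Gbx2, a homeobox gene that LIF and STAT3 activate in ES cells, missed the threshold in the ratio but not in Cy3 alone. Its log2 ratio was 3.03 with FGFR inhibitor, against 3.79 with MEK inhibitor, 3.79 with GSK inhibitor and 4.01 in the control. The array with FGFR inhibitor was the lowest, and the others lay close together. The log2 difference was -0.76 by the ratio, -1.67 in Cy3 alone and -0.085 in the processed signals. The Cy5 signal at this spot was 83.3 with FGFR inhibitor and 264 with MEK inhibitor, so the reference moved with the sample, by -0.84 in Cy5 alone. The part of that shift in the ratio was not tested.

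**Figure D2:**
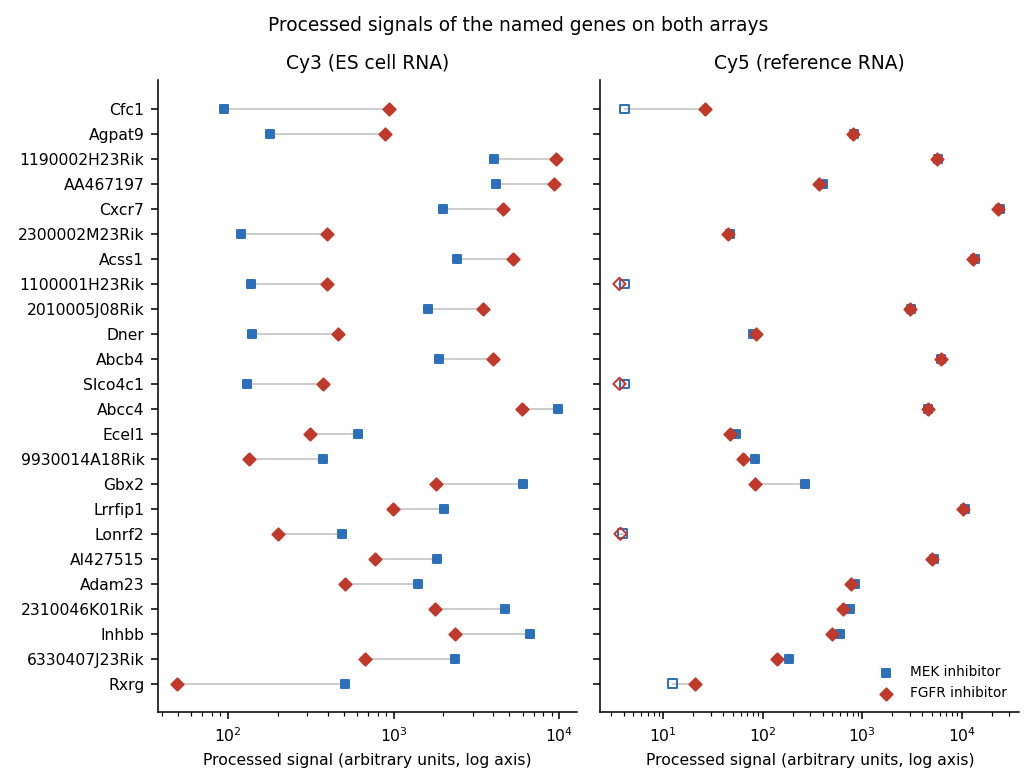
Processed signals (x axis, log scale, arbitrary units) of 24 named genes in Cy3, the ES cell RNA, and in Cy5, the reference RNA, with 1 point per array, red for FGFR and blue for MEK inhibitor. Open symbols are not well above background. Cy3 separates for all genes, while Cy5 overlaps for most and separates for Gbx2, Cfc1 and Rxrg.

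Cxcr7, named Ackr3 in RefSeq, is an atypical receptor that takes up the chemokine CXCL12. Its log2 ratio was -2.45 with FGFR inhibitor, -3.66 with MEK inhibitor, -3.95 in the control and -2.69 with GSK inhibitor. Both FGFR and GSK inhibitor arrays were high and the other arrays low. The log2 difference between FGFR and MEK inhibitor was 1.21 and in Cy3 alone 1.20. Dner, a transmembrane ligand of Notch known from neurons, had a log2 ratio of 1.36 with FGFR inhibitor, 0.34 with MEK inhibitor, -0.052 in the control and 0.26 with GSK inhibitor. FGFR inhibitor alone was high for Dner, with a log2 difference of 1.02 by the ratio, 0.96 in Cy3 alone and 0.82 with median centring. Epha4, an ephrin receptor looked up after its value was seen, was under 2-fold at 0.73.

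Agpat9, named Gpat3 in RefSeq, encodes an enzyme that puts the first acyl chain on glycerol 3-phosphate. Its log2 ratio was -0.052 with FGFR inhibitor and -1.61 with MEK inhibitor, against -1.53 in the control and -1.4996 with GSK inhibitor. The latter 3 arrays were nearly level. The log2 difference was 1.56 by the ratio, 1.58 in Cy3 alone and 2.31 in the processed signals. Acss1, the mitochondrial acetyl-CoA synthetase, had log2 ratios of -1.46 with FGFR inhibitor, -2.57 with MEK inhibitor, -2.99 in the control and -2.27 with GSK inhibitor. Its log2 difference was 1.11. By the ratio it was the only member past 2-fold of 35 measured genes of acyl-CoA metabolism, whose median was -0.016, while in the processed signals 2 were past it, Acot3 among them at 1.38 and looked up after its value was seen. By the ratio, of 10 measured genes of sterol and fatty acid synthesis 0 were called. With median centring Acss1 was at 0.99. Plbd1 (1100001H23Rik), a phospholipase B domain protein, was at 1.11 by the ratio, 0.86 in Cy3 alone and 0.89 with median centring, with Cy5 below the background limit on either array.

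Among transporters, Abcb4, which moves phosphatidylcholine across membranes, had a log2 ratio of -0.81 with FGFR inhibitor, -1.82 with MEK inhibitor, -1.97 in the control and -1.16 with GSK inhibitor. Its log2 difference was 1.01, just inside the threshold, and 0.88 with median centring. In RefSeq its gene lies in a cluster on chromosome 5 with Abcb1a and Abcb1b, the P-glycoproteins that export many drugs. These genes, looked up after their values were seen, were higher with FGFR inhibitor too but under 2-fold by the ratio, at 0.54 and 0.63. In the processed signals they were at 0.74 and 1.08, so Abcb1b passes 2-fold there. The 3 probes shown above share no run of more than 8 bases, so they read different sequences. Abcb4 was the only call among 28 measured ABC transporters, with a median of 0.024. The lowest of them was Abcc4, an exporter of cyclic nucleotides, at -0.71, with log2 ratios of 0.20 with FGFR inhibitor, 0.91 with MEK inhibitor, 0.69 in the control and 0.58 with GSK inhibitor. Slco4c1, an organic anion transporter, lay just outside the threshold at 0.98, and a second probe sharing 48 bases with its own gave 0.83. The processed signals put it past the threshold, at 1.69, and Cy3 alone gave 0.78, with the reference channel not well above background on either array. It was the highest of 26 measured genes with an Slc or Slco symbol in the tables, of which 0 were called. That list leaves out solute carriers held under older symbols, such as Slc52a3, described further on.

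The remaining named genes above 2-fold have roles that are less clear. Rgcc (1190002H23Rik), a regulator of the cell cycle, was at 1.26 with log2 ratios of 0.57 with FGFR and -0.69 with MEK inhibitor. AA467197 was at 1.24, and it was high with GSK inhibitor too, at a log2 ratio of 3.55 against 4.04 with FGFR inhibitor, 2.80 with MEK inhibitor and 2.88 in the control. 2300002M23Rik was at 1.12 by the ratio, 0.91 in Cy3 alone and 0.90 with median centring, and Urgcp (2010005J08Rik) was at 1.04 by the ratio and 0.92 with median centring. All 4 were higher with FGFR inhibitor than on any other array.

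On the lower side, Soga3 (6330407J23Rik) had a log2 ratio of 1.502 with FGFR inhibitor, 2.78 with MEK inhibitor, 3.11 in the control and 2.03 with GSK inhibitor, a log2 difference of -1.28. Slc52a3 (2310046K01Rik), a riboflavin transporter, had log2 ratios of 1.12, 2.24, 1.86 and 1.68 on the FGFR, MEK, control and GSK arrays, a log2 difference of -1.12. Adam23, an ADAM protein without protease activity that binds integrins, had log2 ratios of -0.60, 0.47, 0.091 and -0.21 in the same order, a log2 difference of -1.07. For Slc52a3, Adam23 and Inhbb the control lay between the FGFR and MEK inhibitor arrays. Adam23 was the only called member of 33 measured ADAM and matrix genes by the ratio, whose median was 0.016, and in the processed signals Adamts17, looked up after its value was seen, was past 2-fold as well, at -1.16.

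Just below the threshold were Vat1l (AI427515), at -0.99, Lonrf2, at -0.97, and Lrrfip1, a repressor of transcription, at -0.84. Lonrf2 was high with both MEK and GSK inhibitor, with log2 ratios of 2.18 and 2.07, against 1.21 with FGFR inhibitor and 1.54 in the control. The reference channel did not clear background on any of the 4 arrays. 9930014A18Rik was at -0.73 by the ratio and -1.11 in the processed signals. Ecel1, a membrane protease of the endothelin-converting family, was at -0.71 and -0.75.

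**Figure D3:**
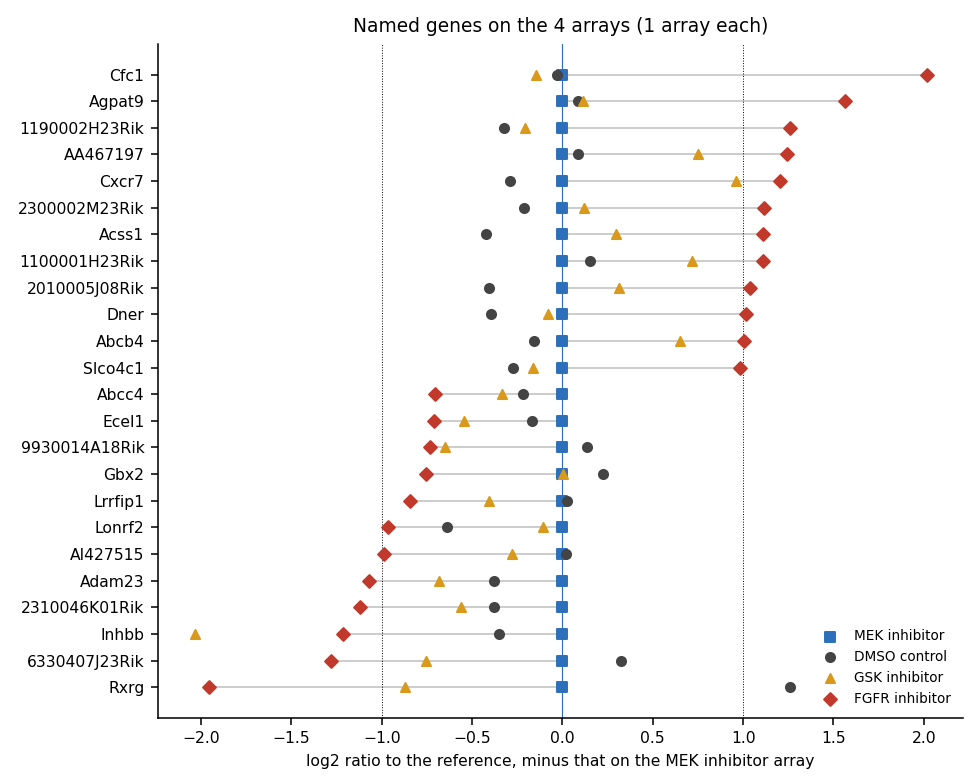
Each of 24 named genes (rows) is shown by its log2 ratio to the reference on 4 arrays, minus that on the MEK inhibitor array (x axis), with 1 array per condition and dotted lines at 2-fold. The FGFR inhibitor array is the farthest to the right for all 12 upper genes and the farthest to the left for 11 of the 12 lower ones, the exception being Inhbb. The genes were chosen by the difference between the FGFR and MEK inhibitor arrays, which favours this order.

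Of 15 measured genes on the list for the FGF receptor to ERK cascade, 0 passed 2-fold or 1.5-fold, by the ratio or in the processed signals, and the median log2 difference was -0.060. No FGF receptor or MEK gene is among the 15, which hold Fgf6, Gpc1 and Gab1, and also Erbb4 and Irs1, which serve other receptors, and Mapk7, which encodes ERK5. The highest was Hs6st1, which sulfates the heparan chains that FGF needs to bind its receptor, at 0.52, with log2 ratios of 1.09 with FGFR inhibitor, 0.56 with MEK inhibitor, 0.30 in the control and 0.48 with GSK inhibitor. The lowest was Elk4, a transcription factor that ERK phosphorylates, at -0.46. Of the genes that report ERK activity through feedback or early transcription, 7 of the 29 listed were measured, 0 passed 1.5-fold by the ratio and 2 did in the processed signals, and the median of these 7 was 0.21, the highest of the 23 gene lists. They ran from Per2, a clock gene, at -0.47, and -0.77 in the processed signals, to Nab1, a corepressor of EGR proteins, at 0.42. How many of all genes passed 1.5-fold in the processed signals was not counted, so the 2 there have no background share. The Sprouty, Dusp, Etv and Egr genes of that list, whose probes carry no name in the tables used, were not analysed here.

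By the ratio, measured genes of the PI3K and mTOR, JNK and p38, G protein and Wnt lists stayed under 1.5-fold too. In the processed signals, 4 of 21 genes of G protein signalling and 1 of 18 of PI3K and mTOR signalling were past it, and 2 of the former, Adra2b at -1.23 and Adcy7 at -1.05, both looked up after their values were seen, were past 2-fold. Over all 16851 genes, 462 were past 2-fold in that form, and the number past 1.5-fold in it was not counted. Of 18 measured genes of PI3K and mTOR signalling, the highest was Inpp5d, the phosphatase SHIP1, at 0.55, and the lowest Sgk3 at -0.12, with a median of 0.022. Of 14 JNK, p38 and TAK1 pathway genes, the values ran from -0.20 for Mapkapk2 to 0.36 for Map4k4. Genes of G protein signalling ran from -0.38 for Adcy3 to 0.32 for Adcy5, among 21 measured, and the 11 Wnt signalling genes from -0.32 for Dvl1 to 0.22 for Wnt10a. Transcript levels of a pathway's parts do not measure its activity.

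Pluripotency regulators were named for 5 probes, and 0 of them passed 2-fold by the ratio. Tcfcp2l1, a target of LIF and STAT3, had a log2 ratio of 3.39 with FGFR inhibitor and 3.37 with MEK inhibitor, a log2 difference of 0.018, and stood at 2.97 in the control and 3.38 with GSK inhibitor. All 3 inhibitor arrays were level for this gene and above the control. Prdm14, which holds FGF receptor expression down in naive cells, had log2 ratios of 2.80 with FGFR inhibitor, 2.29 with MEK inhibitor, 2.20 in the control and 2.04 with GSK inhibitor, a log2 difference of 0.50. Only Gbx2, described above, was past 1.5-fold by the ratio. Among 18 measured developmental transcription factors, Rxrg was the only call, and the highest was Eya1, a transcriptional cofactor and phosphatase, at 0.78 by the ratio and 1.01 in the processed signals, looked up after its value was seen.

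Of 14 measured genes of the aryl hydrocarbon receptor and of xenobiotic metabolism, 0 passed 2-fold, and 3 were at least 1.5-fold higher and 1 was lower, where 2.86% of all genes were past 1.5-fold in either direction. The list's median was 0.15, against -0.0040 over all genes with a robust SD of 0.17. That SD is the spread of single genes and does not measure the spread of a median of 14. The 3 were Gsta3, a glutathione transferase, at 0.79, Abcb1b at 0.63 and Aox3, an aldehyde oxidase, at 0.60. In the processed signals Aox3 was at 1.14, and 2 of the 14 were past 2-fold, where 462 of all 16851 genes were. The lower gene was Abcc4. Ahrr, the repressor of the aryl hydrocarbon receptor, was at -0.081. The 15 measured genes of the p53 and heat shock response ran from -0.30 for Aifm2 to 0.36 for Dnajb1.

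Lists of genes for growth and housekeeping held no calls. Of 29 genes on the ribosomal protein list, which was made by symbol and also took in Rps6kc1 and Rps19bp1, 57 of oxidative phosphorylation, 28 of the proteasome, 34 of the cell cycle and mitosis, 15 aminoacyl-tRNA synthetases and 10 of sterol and fatty acid synthesis, 0 passed 1.5-fold by the ratio, and the medians lay between -0.087 and 0.069. The widest value was that of Uqcrfs1, a subunit of complex III, at 0.50, and it was past 1.5-fold in the processed signals, at 0.65. Of the 35 measured actins and actin regulators, 0 passed 1.5-fold by the ratio, the median was 0.018 and the lowest was Actn3, an alpha-actinin, at -0.39. In the processed signals 3 of the 35 passed 1.5-fold and 1 passed 2-fold, where 462 of all 16851 genes passed 2-fold. In all, 0.605% of the compared genes were called, so lists of this size hold few calls at the share seen over all genes.

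**Figure D4:**
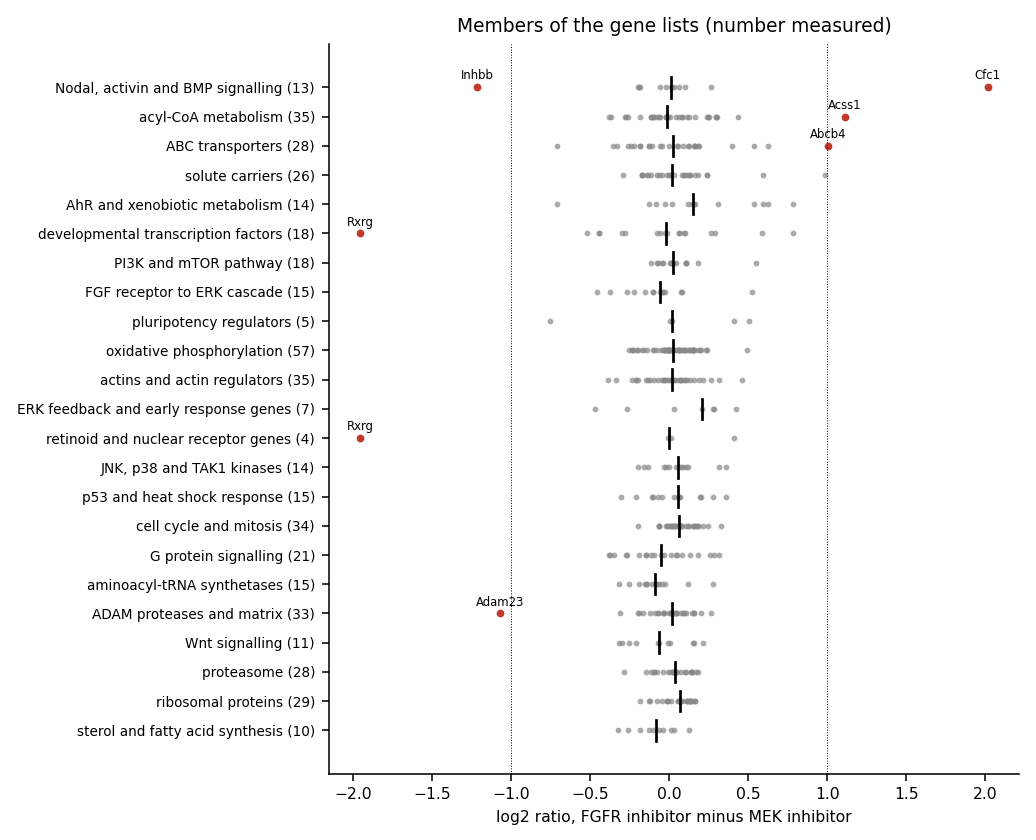
The log2 difference, FGFR inhibitor minus MEK inhibitor (x axis), is plotted for every measured member of 23 gene lists (rows, number measured in parentheses), with a bar at each median and dotted lines at 2-fold. Members past 2-fold are red and named, namely Inhbb, Cfc1, Acss1, Abcb4, Rxrg (on 2 lists) and Adam23, and the medians lie between -0.087 and 0.21.

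Markers of cell types were compared as well. Of the ES cell markers, 4 of 8 have a named probe, and all were measured. Their summed processed Cy3 signal was 51572 with FGFR inhibitor and 56711 with MEK inhibitor, of which Tcfcp2l1 alone gave 46345 and 48079, while Gbx2 gave 1806 and 6080 and Prdm14 2816 and 2060. Fibroblast markers, 7 of 10 above background, summed to 1669 and 1632, neural markers, 6 of 8, to 1419 and 1793, and muscle markers, 5 of 8, to 963 and 1069. These sums take in every named probe of a list, also those below background. Extraembryonic endoderm markers, 4 measured, summed to 33140 and 33690. Of that, Sox17 gave only 506 and 671, and Lamc1 1517 and 1399. By the ratio, 0 genes of these marker lists passed 2-fold and only Gbx2, at -0.76, passed 1.5-fold, while it was at -1.67 in Cy3 alone and -0.085 in the processed signals. The processed signals put Nr5a2 past 2-fold, at 1.07, and Prdm14 at 0.62, Mtap2 at -0.60 and Des at -0.64 past 1.5-fold, of which Mtap2 and Des were looked up after their values were seen. In such bulk RNA, fewer cells of a type and less RNA per cell cannot be told apart. The defining ES cell markers Pou5f1, Nanog, Sox2 and Zfp42 were not analysed here.

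Of the calls, 56 higher and 30 lower genes have no symbol in the tables held. The highest of all was probe Z00010202-1, at a log2 difference of 2.62. Its log2 ratio was -7.13 with MEK inhibitor, against -4.51 with FGFR inhibitor, -4.55 in the control and -4.87 with GSK inhibitor, so here the MEK inhibitor array was the one apart. The next was Z00026671-1, at 2.34, with a log2 ratio of 3.29 with FGFR inhibitor, 0.95 with MEK inhibitor, 0.69 in the control and 0.72 with GSK inhibitor. The lowest without a symbol were Z00030069-1, at -1.58, and Z00056888-1, at -1.57. In the processed signals the first was under 2-fold, at -0.90, and on both arrays Cy5 was not well above background for it. For both, the FGFR inhibitor array had the lowest ratio of the 4, at 2.25 and -2.95.

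Most calls did not rest on the reference channel. Of the 67 higher genes, all had the same direction in Cy3 alone and 60 were at least 2-fold there. In the processed signals 64 had the same direction and 56 were at least 2-fold. Of the 35 lower genes, all had the same direction in Cy3 alone and 32 were past 2-fold, and in the processed signals 34 and 31. At least 2-fold in all 3 forms were 50 higher and 28 lower genes. All 3 forms read the same spots of the same arrays, and the calls were chosen on the ratio. With Cy5 nearly level, the shared direction in Cy3 alone was largely set by that choice. A further 1129 genes were well above background on 1 array only, and 3 of them, without a symbol, differed at least 2-fold.

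**Figure D5:**
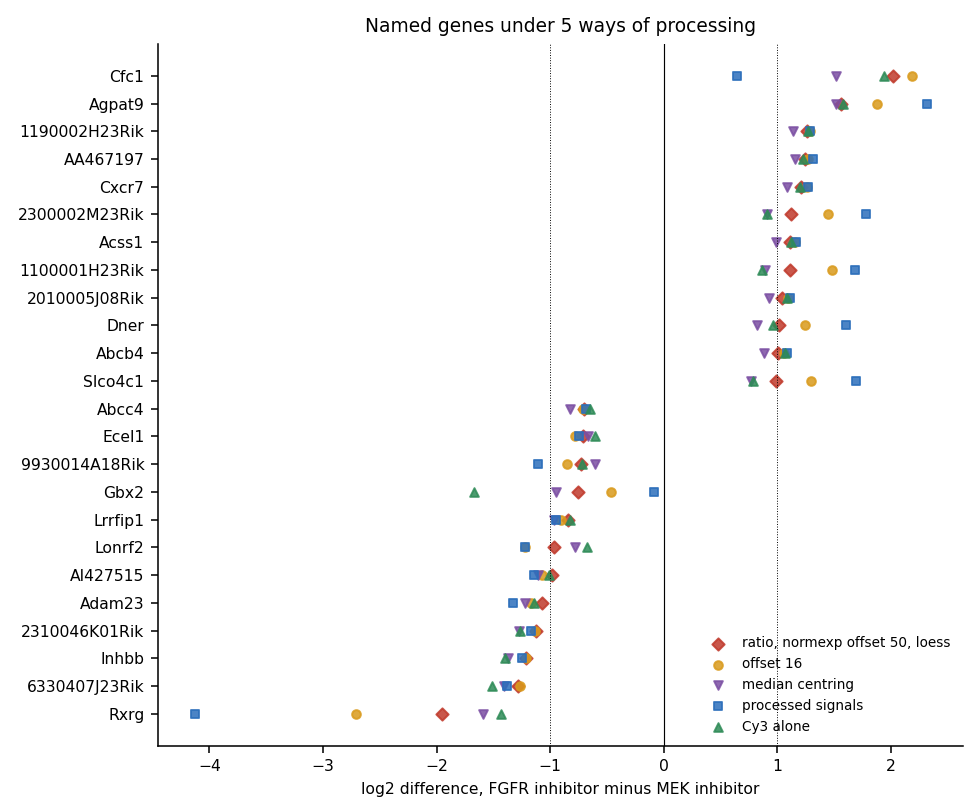
The log2 difference, FGFR inhibitor minus MEK inhibitor (x axis), of 24 named genes (rows) under 5 ways of processing, each from the same 2 arrays. The choice of genes required 1 sign in the ratio, processed and Cy3-only values, and the values spread most for Rxrg, Cfc1 and Gbx2.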

How the data were processed

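RNA of 4 ES cell cultures was measured on 4 two-channel arrays, of which those with FGFR and MEK inhibitor were compared. The authors deposited Agilent Feature Extraction output, which holds each spot's intensity and background per channel, processed intensity corrected by the software, and a table of log10 values for 25030 probes, used to choose 1 probe per gene and as an alternative. Conditions follow the sample labels.

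Mean intensity was corrected for median background (normexp, offset 50, limma 3.58.1, R 4.3.3), where the offset draws differences of dim genes toward 0. Log2 ratios of Cy3 to Cy5 were normalized by loess within arrays, without control spots and the 3 and 4 spots flagged as outliers on these arrays, and spots of a probe were averaged. Each probe had 1 spot except 7 printed several times. Median Cy3 mean signals were 79.0 and 81.7, and no spot was saturated. The number of arrays limits the precision. A gene was called at 2-fold if both arrays had Cy3 well above background. Tables were made in Python 3.11.15 with pandas 2.3.3, and the steps were tested on simulated arrays.

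Symbols came from 5 supplementary tables held in part, and 4123 of the 4377 matched RefSeq (GRCm38.p6), whose names are given with the older one. Named genes are the 12 highest and 12 lowest at 1.5-fold or more with the same sign in processed signals and in Cy3 alone, all list members past 2-fold or else the extremes of each list, Rxrg, Gbx2, Cfc1, Prdm14, Tcfcp2l1, Inhbb and Ahrr, and the 2 highest and 2 lowest probes without a symbol. Of these, 1 list extreme is not reported here. The 23 gene lists, 5 marker lists and the rule were chosen with earlier results of these data known. Alternatives were other background corrections, normalizations, filters and thresholds, the deposited table and every probe of the array.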

Additional observations from a re-analysis of the deposited data

How the results depend on the processing

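No paired analysis was possible because there was 1 array per condition, and none could be left out. The number of genes at least 2-fold apart, 102, became 462 in the processed signals, 462 in the deposited log10 table, 482 at 1.5-fold and 6 at 4-fold, all 6 of them higher with FGFR inhibitor. The cause of the higher count with processed signals was not tested. The other settings gave 88 to 149, with 88 when both channels had to be above background, 149 with an offset of 16 and 140 over every probe of the array. Median centring shifted the median log2 difference of all genes to -0.081 and turned the split of calls to 42 higher and 57 lower. The robust SD of the differences lay between 0.16 and 0.24 over the settings.

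None of the 20 named genes or probes past 2-fold changed direction in any setting that alters values, though their choice already required the same sign in processed signals and Cy3 alone. Past 2-fold remained 20 with an offset of 16, without background subtraction and with Aquantile, 18 in the processed signals and also in the deposited table, 17 in Cy3 alone and 14 with median centring. Medians of the 28 lists ran from -0.13 to 0.21, and from -0.24 to 0.33 with the processed signals. Each stayed within 1 robust SD of all genes of its own value. That SD is the spread of single genes, so it is a loose limit for a median. Dim genes limit the comparison, since the offset narrows their differences: the robust SD was 0.098 in the dimmest of 20 groups.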

Other observations

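The GSK inhibitor array entered no difference above, and its position for the called genes is described here. It lay nearer to the FGFR than to the MEK inhibitor array for 14 of the 67 higher genes and for 18 of the 35 lower genes. Among the 12 highest named genes it was nearer to the FGFR inhibitor array for 4, namely Cxcr7, AA467197, Plbd1 (1100001H23Rik) and Abcb4, and among the 12 lowest for 6. Inhbb was lower still with GSK inhibitor than with FGFR inhibitor, at a log2 ratio of 1.00 against 1.82. The same shares over all compared genes were not counted, so these counts are not read as a trait of the called genes. Whether they differ between higher and lower genes was not tested.

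Pairs of overlapping probes were available for a few called genes without a symbol. Z00024218-1 and Z00074635-1, which share 45 bases, gave log2 differences of -1.28 and -1.49, and Z00053024-1 and Z00075320-1, which share 48, gave 1.20 and 1.13. The probe Z00073001-1, at -1.05, shares 49 bases with Z00054494-1, at -1.23, and 34 with Z00055961-1, at -0.28. Z00055583-1 and Z00074877-1 share 22 bases and gave 1.49 and 2.39. These probes were looked up after their values were seen.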
